A study of Nicotiana tabacum with 9 samples.

Results

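Multiprotein bridging factor 1 (MBF1) proteins are small transcriptional coactivators. They carry no activation domain of their own and are known to connect gene-specific activators, bZIP factors among them, with the TATA-binding protein of the basal transcription machinery. In Arabidopsis, MBF1c is the member known for its induction by heat and for its role in basal thermotolerance, while MBF1b is expressed in most tissues without stress. The 7 tobacco genes described here were those that the study's list of transcriptional regulators placed in the MBF1 family, out of 74044 genes in the count tables. They were found by their names in the deposited annotation, and all 7 have an entry in the count tables of the 9 libraries.

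Messenger RNA was sequenced from pollen tubes of the tobacco cultivar Samsun-NN, grown in vitro on cellophane over solid medium from pollen pooled from several plants. The 3 conditions, with 3 libraries each, were 3 h at room temperature (RT) followed by 3 h of heat stress (HS) at 37 °C (HS 3 + 3 h), 6 h at RT (RT 6 h) and 3 h at RT (RT 3 h). No transgene or mutant was involved, and the groups shared cultivar, medium and the first 3 h at RT. The sources used here do not give whether each library was made from its own pool of pollen, so p-values measure the spread between these libraries, which may be technical. Between 14931693 counts, in HS replicate 1, and 26772286 counts, in RT 3 h replicate 2, fell on genes per library. The label of the tissue was not checked against marker genes here, since no product names were at hand for the genes. As in any bulk sample, more transcript per tube cannot be told apart from more tubes that carry it.

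The family fell into 2 structural classes. The 1-exon genes, LOC107787006 and LOC107808000, have Arabidopsis MBF1c (AT3G24500) as their closest homolog in the study's list, and the 5 4-exon genes have MBF1b (AT3G58680). In the TN90 annotation, LOC107787006 lies on the minus strand of scaffold NW_015913993.1 from 13892 to 14603 with a coding region of 444 bases, and LOC107808000 on the minus strand of NW_015804242.1 from 4471 to 5255 with 441 coding bases, that is 147 and 146 codons before the stop. Neither shares its scaffold with another annotated gene. In all 5 4-exon genes coding exons 2, 3 and 4 are 84, 83 and 120 bases long, and only exon 1 differs. It has 136 bases in LOC107792623 (NW_015921366.1, 21849 to 24796, minus strand) and LOC107786426 (NW_015913333.1, 69729 to 72827, plus strand). It has 133 bases in LOC107781350 (NW_015907393.1, 20416 to 22949, plus strand) and LOC107828038 (NW_015849398.1, 261814 to 264549, minus strand). In LOC107818677 (NW_015790160.1, 12380 to 16927, minus strand) it has 220 bases, which makes this the longest coding region of the family, with 507 bases against 420 to 444 in the others. The first of these pairs of 4-exon genes shares 1 protein entry in the study's list, and the second pair shares another. Similar copies can split short single-end reads between them or lose them, so single values of the 4-exon genes carry that uncertainty. The 1-exon genes share their closest homolog and were not compared in sequence, so the same may hold for them. No annotated gene overlapped a member, on either strand.

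Both 1-exon genes were nearly silent at RT and rose under HS to become the most abundant MBF1 transcripts, whereas none of the 4-exon genes passed the limits in any comparison. LOC107808000, an MBF1c homolog, had 666, 1153 and 1339 counts in the HS libraries, against 7, 5 and 4 at RT 6 h and 2, 0 and 1 at RT 3 h. LOC107787006, the other MBF1c homolog, had 415, 695 and 730 counts under HS, against 1, 4 and 2 at RT 6 h and 5, 3 and 3 at RT 3 h. For both genes every HS library lay far above every RT library, including HS replicate 1, the library with the fewest counts in all. The HS libraries lay entirely above those of RT 6 h in 26.3% of all genes tested in that comparison, and entirely above those of RT 3 h in 28.7%. As counts per Mio counts of a library (CPM, with TMM scaling), LOC107808000 reached 54.3 ± 6.01 CPM under HS (SD, n = 3) against 0.213 ± 0.0708 CPM at RT 6 h and 0.0379 ± 0.0386 CPM at RT 3 h. LOC107787006 reached 31.9 ± 1.26 CPM under HS against 0.0908 ± 0.0566 CPM at RT 6 h and 0.135 ± 0.0505 CPM at RT 3 h.

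**Figure D1:**
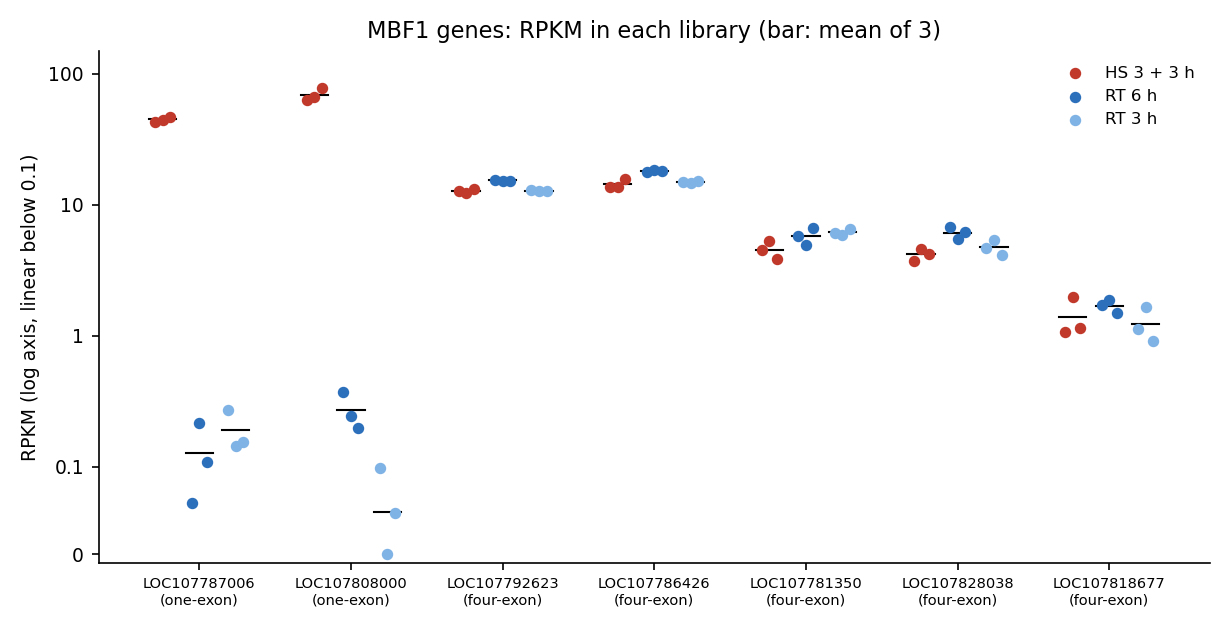
Reads per kilobase of exon per Mio counts (RPKM) of the 7 MBF1 genes on a log axis that is linear below 0.1, with 1 point per library and a bar at the mean of 3. The HS libraries of the 1-exon genes lie between 43.2 and 77.7 RPKM while their RT libraries stay below 0.4, and the 3 conditions of each 4-exon gene lie close to each other.

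Between HS and RT 6 h, tubes of equal age, 2 of the 7 MBF1 genes were called upregulated and 0 downregulated. Genes were called past an absolute log2 fold change (log2FC) of 1 and a false discovery rate (FDR) of at most 0.005 in edgeR's quasi-likelihood test, the limits of the study, and of the 23053 genes tested 6.24% were called upregulated and 2.87% downregulated. By the FDR alone, whatever the size, 17.5% of all genes tested were higher, and among the members the same 2. The log2FC was 8.35 (SE = 0.54, FDR = 1.84e-59) for LOC107787006 and 7.98 (SE = 0.37, FDR = 6.17e-65) for LOC107808000, which placed them at ranks 53 and 63 of the 23053 log2FCs. Because so few reads were counted at RT, the size of these changes is known less well than their direction. The summed counts of LOC107787006, 1840 under HS and 7 at RT 6 h, gave a ratio of 347 after scaling, with an exact 95% counting interval from 168 to 864. Those of LOC107808000, 3158 and 16, gave a ratio of 260.5 (160.2 to 456). The intervals overlapped, and they cover counting error only. Over 14 alternative settings each, the log2FC of LOC107787006 lay between 8.03 and 8.90 and that of LOC107808000 between 7.80 and 8.24, all past the limits. Both genes were removed before the test where every library had to hold at least 10 counts. In the reported fit they passed the filter of more than 0.5 CPM in at least 2 libraries only through the HS libraries. They could therefore only be called higher, not lower.

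Against RT 3 h, the tubes before heat onset, the same 2 genes were upregulated and 0 were downregulated, where 7.36% of 23373 genes were called upregulated, 4.92% downregulated, and 18.5% were higher by the FDR alone. This comparison used the same HS libraries as that with RT 6 h. Here too, both genes passed the filter only through the HS libraries, so they could only be called higher. The log2FC was 10.35 (SE = 0.84, FDR = 1.89e-29 by edgeR) for LOC107808000, at rank 8 of all genes tested, and 7.84 (SE = 0.40, FDR = 2.26e-28) for LOC107787006, at rank 74. The larger value of LOC107808000 rests on 3 counts in all RT 3 h libraries together, and it was 11.19 without RT 3 h replicate 1 and 9.75 without RT 3 h replicate 2, still past the limits. For LOC107787006 the log2FC lay between 7.56 and 8.15 over 14 alternative settings. The ratio of summed counts of LOC107808000 was 1515, with a counting interval from 518 to 7349. That of LOC107787006, with 11 counts at RT 3 h, was 241 (134 to 483). These intervals did not overlap.

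Without heat, the levels of the 1-exon genes were close to the limit of detection. LOC107808000 had more counts in each RT 6 h library (4 to 7) than in any RT 3 h library (0 to 2), a ratio of 5.81 with a counting interval from 1.66 to 31.1. The RT 6 h libraries lay entirely above those of RT 3 h in 19.0% of all genes tested. LOC107787006 had 7 counts in all at RT 6 h and 11 at RT 3 h, a ratio of 0.694 (0.228 to 1.96), with overlapping libraries. Neither gene passed the filter of more than 0.5 CPM in at least 2 libraries, so neither was tested in this comparison. When the filter was dropped, edgeR gave log2FC = 2.40 with FDR = 0.0376 for LOC107808000 and log2FC = -0.50 with FDR = 0.766 for LOC107787006, which are outside the FDR limit.

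Within the HS libraries, LOC107808000 was the more abundant of the pair by the reads assigned to each. Per length of exon it had 62.9, 66.9 and 77.7 RPKM, and LOC107787006 had 43.2, 44.5 and 46.7 RPKM. The ratio between them was between 1.46 and 1.66 in the HS libraries, and 1.62 to 1.85 when coding length was used in place of exon length. Under HS, 4.54% of 24013 expressed genes had a higher mean RPKM than LOC107808000 and 6.26% had a higher one than LOC107787006. At RT 6 h these shares were 88.8% and 97.2%.

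The 4-exon genes, homologs of the MBF1b type, were present in every library of every condition, and their fitted log2FCs under HS were small and negative against RT 6 h. LOC107792623 had 12.9, 12.5 and 13.3 CPM in HS replicates 1 to 3, against 15.6, 15.3 and 15.4 CPM at RT 6 h and 13.1, 12.7 and 12.9 CPM at RT 3 h. Its HS libraries thus lay below all RT 6 h libraries and among those of RT 3 h. LOC107786426 had 10.6, 10.7 and 12.3 CPM under HS, against 13.8, 14.3 and 14.1 CPM at RT 6 h and 11.7, 11.5 and 11.8 CPM at RT 3 h. It showed the same order, with RT 6 h highest and HS replicate 3 above RT 3 h. LOC107828038 had 3.93, 4.83 and 4.46 CPM under HS, against 7.14, 5.73 and 6.48 CPM at RT 6 h and 4.94, 5.66 and 4.35 CPM at RT 3 h. For these 3 genes the HS and RT 6 h groups did not overlap, while those of HS and RT 3 h did. The HS libraries lay entirely below the RT 6 h libraries in 24.1% of all genes tested.

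**Figure D2:**
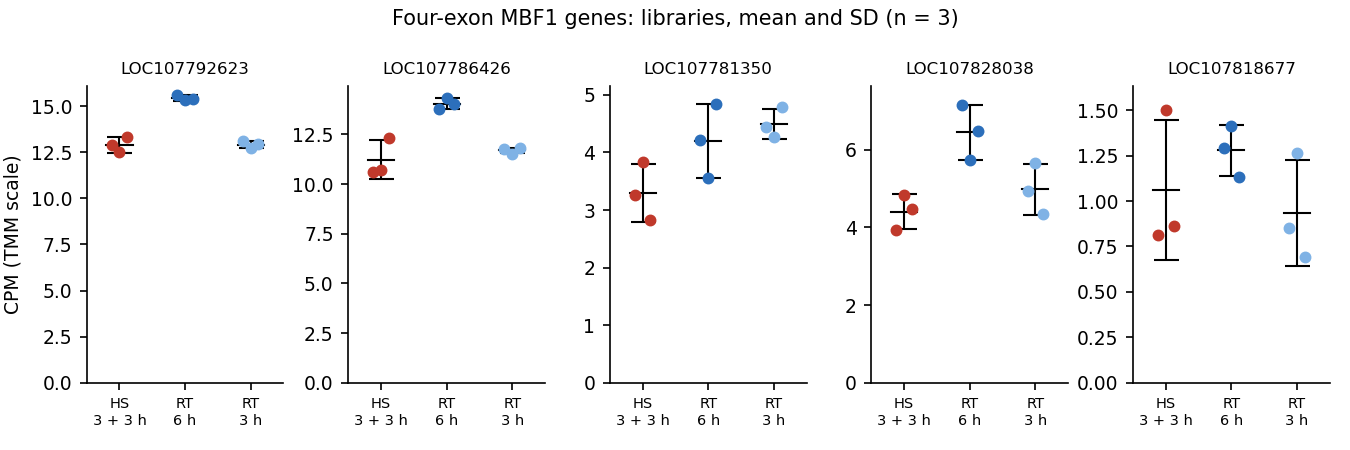
CPM of the 5 4-exon MBF1 genes in the 3 conditions on linear axes from 0, with 1 point per library, a bar at the mean and whiskers of 1 SD (n = 3). In LOC107792623, LOC107786426 and LOC107828038 the RT 6 h libraries lie highest, and in LOC107818677 the conditions overlap.

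The remaining 4-exon genes had a lower mean CPM in each condition. LOC107781350 had 3.26, 3.83 and 2.82 CPM under HS, against 4.22, 3.55 and 4.84 CPM at RT 6 h and 4.44, 4.26 and 4.78 CPM at RT 3 h. HS replicate 2 lay above RT 6 h replicate 2, so those groups overlapped, whereas all HS libraries were below all RT 3 h libraries, as in 27.0% of the genes tested in that comparison. LOC107818677, the member with the long first coding exon, had 11, 33 and 19 counts under HS, against 31, 37 and 29 at RT 6 h and 22, 37 and 19 at RT 3 h. Its CPM were 1.06 ± 0.384 under HS, 1.28 ± 0.141 at RT 6 h and 0.935 ± 0.293 at RT 3 h (SD, n = 3 each), so that differences between conditions were within the spread of the libraries.

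Against RT 6 h, the log2FCs of the 5 4-exon genes lay between -0.53 and -0.23, with a median of -0.32, while the median of all genes tested was 0.01. By the FDR alone, 2 of the 7 members were lower, and 14.4% of all genes tested were lower by that rule. LOC107828038 had a log2FC of -0.53 (SE = 0.13, FDR = 0.000257 by edgeR), that is 0.694 of its RT 6 h level, and it passed this limit in all 15 alternatives (log2FC between -0.68 and -0.46). LOC107786426 had a log2FC of -0.32 (SE = 0.09, FDR = 0.00146). It missed the limit with DESeq2 (FDR = 0.0110) and in edgeR fits without RT 6 h replicate 2 (FDR = 0.00839), HS replicate 1 (FDR = 0.00902) or HS replicate 2 (FDR = 0.0219). LOC107792623 was just outside, with log2FC = -0.26 (SE = 0.08, FDR = 0.00628). LOC107781350 had log2FC = -0.34 (SE = 0.15, FDR = 0.0546), and LOC107818677 had log2FC = -0.23 (SE = 0.26, FDR = 0.505), for which the counting interval of the ratio, 0.614 to 1.19, includes both a fall and a small rise. The sign of all 5 values was negative in every alternative of this comparison. Without TMM, where the median log2FC of all genes moved to -0.15, 4 members were lower by FDR alone.

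**Figure D3:**
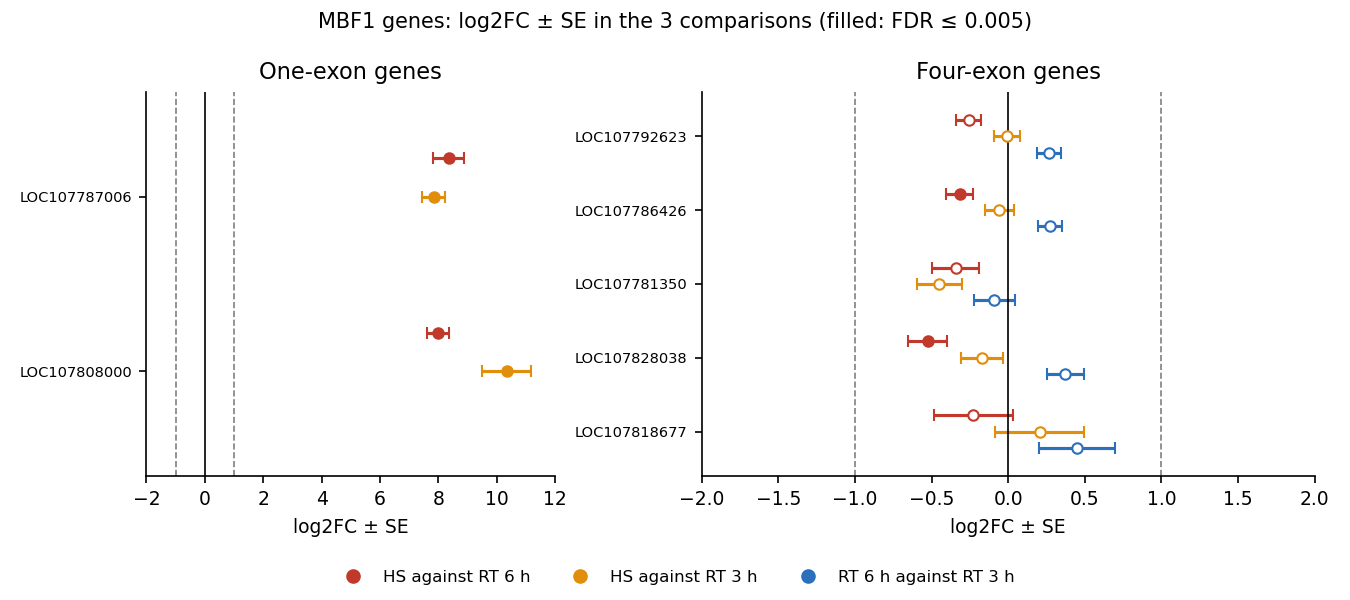
Log2FC ± SE of each MBF1 gene tested in the 3 comparisons, with the 1-exon genes on the left and the 4-exon genes on the right. Filled points passed an FDR of 0.005, the dashed lines stand at -1 and 1, and the RT 6 h against RT 3 h comparison has no point for the 1-exon genes, which were not tested there. All 4-exon genes lie between -0.53 and 0.45.

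Against RT 3 h, none of the 4-exon genes passed the FDR limit under HS by edgeR, where 16.9% of all genes tested were lower by the FDR alone, and 1 member, LOC107781350, had an unadjusted p below 0.05 in the lower direction (log2FC = -0.45, SE = 0.15, FDR = 0.0112). The likelihood ratio test and DESeq2 likewise found 0 lower members. LOC107792623 had a log2FC of -0.01 (SE = 0.09) and LOC107786426 one of -0.06 (SE = 0.09), with counting intervals of the ratio from 0.910 to 1.10 and from 0.875 to 1.07. LOC107828038 had log2FC = -0.17 (SE = 0.14, FDR = 0.314) and LOC107818677 had log2FC = 0.21 (SE = 0.29, FDR = 0.582). With library totals in place of TMM, LOC107786426 and LOC107781350 were lower by the FDR alone, and the median over all genes was then -0.28.

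During growth at RT, 0 of the 5 4-exon genes were called between RT 6 h and RT 3 h by edgeR, the likelihood ratio test or DESeq2, where 0.911% of the 23043 genes tested were called higher and 0.785% lower by edgeR. By the FDR alone 7.39% of all genes were higher and 7.92% lower, and 0 of these 5 were among them. An unadjusted p below 0.05 was reached by 3 of them, all higher at RT 6 h. These were LOC107828038 (log2FC = 0.37, SE = 0.12, FDR = 0.0218), LOC107786426 (log2FC = 0.27, SE = 0.08, FDR = 0.0113) and LOC107792623 (log2FC = 0.27, SE = 0.08, FDR = 0.0114). In each of the 3, every RT 6 h library lay above every RT 3 h library, which held for 19.0% of all genes tested. LOC107781350 (log2FC = -0.09, SE = 0.13) and LOC107818677 (log2FC = 0.45, SE = 0.25) had overlapping libraries. The RT 6 h libraries also served the HS comparison, so the higher values at RT 6 h enter both comparisons.

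The makeup of the family differed between HS and RT. Summed over the 7 genes, there were 151 ± 10.6 RPKM under HS, 47.3 ± 0.981 RPKM at RT 6 h and 40.2 ± 0.362 RPKM at RT 3 h (SD, n = 3 each), so the HS sum was 3.20 times that of RT 6 h and 3.76 times that of RT 3 h. The 1-exon genes supplied 74.8%, 74.6% and 76.4% of the sum in the HS libraries, against 0.644% to 0.991% at RT 6 h and 0.355% to 0.916% at RT 3 h. The sum of the 4-exon genes was 37.3 ± 1.44 RPKM under HS, 46.9 ± 1.03 RPKM at RT 6 h and 40.0 ± 0.367 RPKM at RT 3 h. No test was made on these sums, since they combine genes whose own tests are given above.

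**Figure D4:**
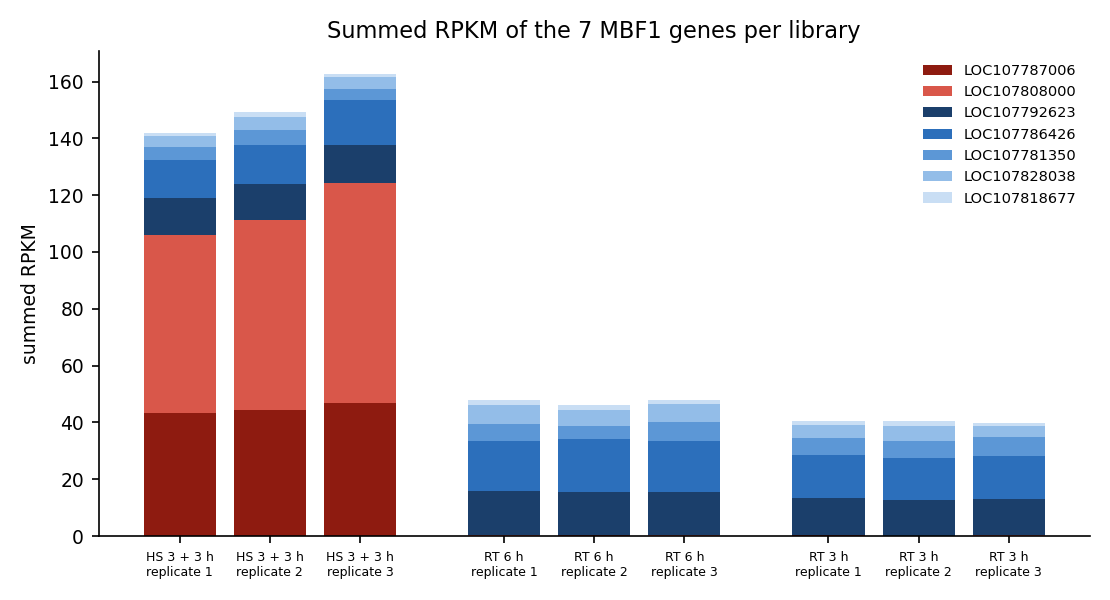
Stacked bars of the RPKM of the 7 MBF1 genes in each of the 9 libraries, with the 1-exon genes in red at the base and the 4-exon genes in blue. The HS bars reach 142 to 163 RPKM, of which 74.6% to 76.4% is red, and the RT bars reach 39.8 to 47.9 RPKM.

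Under HS the order of levels per length of exon was LOC107808000, LOC107787006, LOC107786426, LOC107792623, LOC107781350, LOC107828038 and LOC107818677, with means of 69.2, 44.8, 14.4, 12.8, 4.55, 4.18 and 1.40 RPKM. LOC107781350 and LOC107828038 overlapped in this order, and the other neighbours did not. At RT 6 h, LOC107786426 (18.0 RPKM) and LOC107792623 (15.3 RPKM) came first, LOC107828038 and LOC107781350 overlapped at 6.12 and 5.79 RPKM, LOC107818677 followed with 1.68 RPKM, and the 1-exon genes overlapped at the bottom. At RT 3 h, LOC107786426 and LOC107792623 again came first, with 15.0 and 12.8 RPKM. The order within the 4-exon genes depended on the length used, because they differ in annotated exon length (726 to 1053 bases) more than in coding length (420 to 507 bases). Per coding length, LOC107792623 came before LOC107786426 in all conditions (30.5 and 26.5 RPKM under HS) and LOC107828038 before LOC107781350 (10.5 and 7.87 RPKM under HS). Per coding length too, the 1-exon genes came first under HS and last at RT.

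The genes next to the 4-exon members had low counts or none. LOC107792622, 536 bases upstream of LOC107792623, and LOC107786425, 866 bases upstream of LOC107786426, had at most 4 counts in any library. LOC107818686, 3904 bases upstream of LOC107818677, had 0.974 ± 0.525 CPM under HS and 1.10 ± 0.0708 CPM at RT 6 h (log2FC = -0.06, SE = 0.28, FDR = 0.887 by edgeR).

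The profile of the 1-exon pair was compared with those of 24011 other genes as the root mean square difference of centred log2 CPM over the 9 libraries. The 5 closest genes were LOC107820215 (0.232 on the log2 scale), LOC107782616 (0.294), LOC107764378 (0.306), LOC107767950 (0.328) and LOC107795268 (0.351). LOC107820215 had 23.4 ± 1.44 CPM under HS, 0.0385 ± 0.0382 CPM at RT 6 h and 0.0129 ± 0.0223 CPM at RT 3 h. LOC107767950 was the most abundant of the 5, with 98.2 ± 5.98 CPM under HS, 0.623 ± 0.0758 CPM at RT 6 h and 0.554 ± 0.216 CPM at RT 3 h. None of the 5 is in the regulator lists used here. LOC107808000 and LOC107787006 themselves lay 0.428 from their mean profile. With a smaller prior count of 0.5, only 1 of the 5 names stayed, so the choice among genes silent at RT is not firm.

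Other regulators of the study's list were read from the same comparison of HS with RT 6 h, where 6.24% of all genes were called upregulated. The p15 coactivators are a further family of that list, and no link between them and MBF1 proteins is given in the sources used here. Both p15 coactivator genes, whose relatives bind single-stranded DNA and aid activated transcription, were upregulated, LOC107814572 with 4.30 ± 0.412 CPM under HS against 0.354 ± 0.0926 CPM at RT 6 h (log2FC = 3.56, SE = 0.30) and LOC107801339 with 5.59 ± 0.464 CPM against 0.787 ± 0.260 CPM (log2FC = 2.82, SE = 0.22). LOC107814572 passed the filter only through the HS libraries, so it could only be called higher. DREB2 factors bind drought-responsive elements and are known to act downstream of MBF1c in Arabidopsis, where DREB2A is the member concerned. All 5 tobacco genes whose closest homolog is DREB2C were upregulated, beside 6.24% of all genes. Their log2FCs were 1.35 for LOC107816670, 1.26 for LOC107776399, 1.21 for LOC107766960, 1.20 for LOC107797978 and 1.005 (SE = 0.23) for LOC107784884. LOC107784884 was just past the log2FC limit. LOC107797978 was near the FDR limit (SE = 0.37, FDR = 0.00365 by edgeR), with 8 to 11 counts per RT 6 h library. It passed the filter only through the HS libraries, so it could only be called higher. The median of the 5 genes was 1.21, where that of all genes was 0.01. Their level under HS was between 0.879 and 4.49 CPM. Without TMM 3 of the 5 were called, where the median log2FC of all genes moved to -0.15. Against RT 3 h, 3 of the 5 were called higher, beside 7.36% of all genes, while LOC107797978 (log2FC = 1.13, FDR = 0.00739 by edgeR) and LOC107784884 (log2FC = 0.31, FDR = 0.198) were not.

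**Figure D5:**
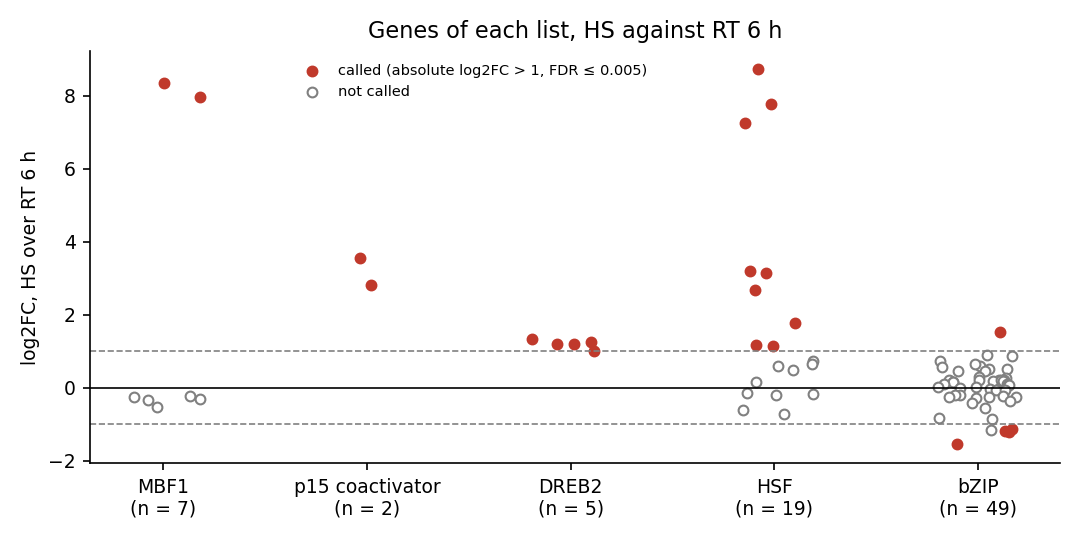
Log2FC of HS over RT 6 h for the genes of the MBF1, p15 coactivator, DREB2, HSF and bZIP lists, with 1 point per gene, filled where it was called, and dashed lines at -1 and 1. The 1-exon MBF1 genes, at 8.35 and 7.98, lie with the strongest HSF genes, while the 4-exon genes lie just below 0.

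Of the 19 heat stress transcription factor (HSF) genes, 9 were called higher and 0 lower by edgeR (median log2FC = 0.73), beside 6.24% and 2.87% of all genes. By the FDR alone 11 were higher and 2 lower, beside 17.5% and 14.4% of all genes. LOC107766665, LOC107773834 and LOC107810899, homologs of HSFB1, HSFA2 and HSFB1, were like the 1-exon MBF1 genes nearly silent at RT 6 h, with at most 1, 1 and 3 counts per library, and had 13.6 ± 0.611, 4.08 ± 0.609 and 8.80 ± 1.04 CPM under HS. These genes and LOC107832603, also called higher, passed the filter only through the HS libraries, against RT 6 h and against RT 3 h. They could only be called higher. The smallest called rises were those of LOC107773626 (log2FC = 1.78), LOC107808261 (log2FC = 1.17) and LOC107817413 (log2FC = 1.13), homologs of HSFA4a, HSFB2b and HSFA3. The other HSFA4a homologs, LOC107831180 (log2FC = -0.604) and LOC107824607 (log2FC = -0.715), were lower by the FDR alone. HSFB2a and HSFB2b are class B factors, which mostly repress transcription and whose genes are known targets of MBF1c in Arabidopsis. The other HSFB2b homologs, LOC107769826 and LOC107775044, had log2FCs of 3.16 (SE = 0.17) and 2.68 (SE = 0.13), and the HSFB2a homolog LOC107823244 had 7.37 ± 0.547 CPM under HS against 4.60 ± 0.394 CPM at RT 6 h (log2FC = 0.66, SE = 0.12, below the log2FC limit). Compared with RT 3 h, the log2FCs under HS were 1.82 for LOC107769826, 2.19 for LOC107775044, 1.06 for LOC107808261 and 0.24 (SE = 0.12) for LOC107823244. LOC107769826 was called lower at RT 6 h than at RT 3 h (log2FC = -1.33, SE = 0.19). Of the 49 bZIP genes, the class of activators that MBF1 proteins bridge, 1 was called higher and 4 lower, with a median log2FC of 0.07, beside the same 6.24% and 2.87% of all genes. By the FDR alone 6 of the 49 bZIP genes were higher and 7 lower, beside 17.5% and 14.4% of all genes. LOC107820577, a homolog of bZIP23, had log2FC = 1.54. The lower genes were LOC107769807 and LOC107818886, homologs of bZIP53 (log2FC = -1.12 and -1.19), LOC107775004, a homolog of bZIP63 (log2FC = -1.21), and LOC107781073, a homolog of bZIP44 (log2FC = -1.55). Of the other bZIP53 homologs, LOC107808808 was higher by the FDR alone (log2FC = 0.296). LOC107807277 and LOC107805559 were lower by that rule (log2FC = -0.813 and -0.848). Against RT 3 h, 12 HSF genes were called higher and 0 lower, and 1 bZIP gene was called higher and 5 lower, beside 7.36% and 4.92% of all genes. The HSF, bZIP and p15 coactivator genes are families of the study's list of regulators expressed in these libraries, from which the 5 DREB2C homologs were picked for the present description.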

How the data were processed

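Total RNA of pollen tubes was sequenced from non-stranded mRNA libraries as short single-end reads, aligned by the authors to the TN90 genome with STAR 2.5.2a and assigned to genes with featureCounts 1.5.0-p1. The deposited values are whole-number counts per gene without normalization, in 9 libraries of 74044 genes each, with 0 columns of other samples. The treatment of reads with more than 1 alignment is not given in the sources used here. Exon and coding positions (the other deposited values) are those of the TN90 annotation deposited by the authors.

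The 6 libraries of a comparison were fitted by themselves in edgeR 4.0.16 (R 4.3.3) with TMM and the quasi-likelihood test. Genes entered a fit if 2 or more of its libraries had over 0.5 CPM. FDRs are Benjamini-Hochberg values over all genes tested. Standard errors are Wald values from the Fisher information of each fit, scaled by its quasi-likelihood dispersion. The study used edgeR's likelihood ratio test, which was run as an alternative. CPM and RPKM per library were scaled with TMM over all 9 libraries, and RPKM used summed exon lengths. Counting intervals are exact 95% binomial intervals on summed counts. Pairs of replicate libraries differed by more than sampling noise (chi-square per degree of freedom between 1.68 and 6.06). The fit was tested on simulated data before use. Figures and gene positions were prepared in Python 3.11.15 with pandas 2.3.3, and fits and levels in R.

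The members, lists and tests were chosen with earlier results of these data known. Genes are named by a rule that takes all members, called genes at both ends of each list, homologs of HSFB1, HSFB2a and HSFB2b, and the 5 closest profiles. A few further HSF and bZIP genes are named where they limit a statement. Alternatives were other tests (likelihood ratio test, DESeq2 1.42.0), scalings, filters and FDR limits, all libraries in 1 fit, a replicate block, and each library left out. Protein and promoter sequences, lists of TATA-binding protein and trehalose genes and tissue markers were not analysed here, since no sequences or product names were at hand. In the K326 reference table, 6 of the 7 members were found, and nothing was taken from it.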

Additional observations from a re-analysis of the deposited data

How the results depend on the processing

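Of 180 recomputed counts of MBF1 members past a limit, 167 were within 1.5 times the reported count. Counts of 0 that stayed 0 and counts of 2 that became 3 fell within this rule, so the number says little about stability. With at least 10 counts in every library, 0 members were called higher or were higher by FDR alone under HS against RT 6 h and against RT 3 h, since this filter removed the 1-exon genes. Members lower by FDR alone under HS against RT 6 h numbered 1 with DESeq2, 4 without TMM and between 1 and 2 with single libraries left out, and it was 1 without RT 6 h replicate 2, HS replicate 1 or HS replicate 2. Against RT 3 h they numbered 2 without TMM and 1 at an FDR limit of 0.05. At that limit 3 members were higher at RT 6 h than at RT 3 h. With the replicate block, this count was 2 (LOC107792623, FDR = 0.00413, and LOC107786426, FDR = 0.00440). Whether same-numbered libraries share more than a number is not given in the sources used here. Their deviations correlated at -0.028 to 0.147 over the comparisons, and not every library correlated best with its own number, which cannot decide it. Between RT 6 h and RT 3 h the correlations were 0.147, 0.021 and 0.089 for replicates 1, 2 and 3. Libraries of unlike number had -0.113 to 0.035 there. The block changed no other count of members. Without TMM, 3 DREB2 genes were called higher against RT 6 h, 10 bZIP and 1 HSF genes were called lower against RT 3 h, and between RT 6 h and RT 3 h 1 bZIP gene was called lower and 0 HSF genes higher. The median log2FC of all genes was then -0.15, -0.28 and -0.13 in these comparisons. The shares of all genes called in this setting are not given here, so these counts cannot be set against them.

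The sign turned for values near 0. Under HS against RT 3 h, LOC107818677 had log2FC = -0.078 without TMM and between -0.16 and 0.47 with libraries left out (-0.16 without HS replicate 2), and LOC107792623 had -0.039 to 0.022 (0 without HS replicate 1, 0.022 without HS replicate 2). LOC107781350 had -0.21 to 0.023 between RT 6 h and RT 3 h, with 0.023 without RT 6 h replicate 2. The causes were not tested. The share of the family sum from the 1-exon genes under HS was 71.5% by coding length and 72.3% without division by length. With a prior count of 0.5, 1 of the 5 genes with the closest profile was shared. The alternatives on heat shock elements in promoters and on TATA-binding protein and trehalose lists were not run. Depth limits LOC107818677 and the RT levels of the 1-exon genes, where 3 counts correspond to 0.102 to 0.125 CPM.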
